A study of Mus musculus with 9 samples.

Results

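The sites described here were positions where chromatin accessibility was called in wild-type (WT) cells and in no list from cells lacking ANP32E. They were chosen by merging the ATAC-seq peaks of 4 lists on chromosomes 1 to 19, where peaks overlapped or touched, and keeping merged sites with a WT peak and no peak from any of the 3 Anp32e null lists. Of 125387 merged sites, 79847 held a WT peak, and 8635 of these, 10.8% (95% Wilson interval 10.6 to 11%), were called in WT alone. The number depended on the threshold and on the lists compared. It was 4072 with a −log10 q of 5 or more in every list, 3187 with that threshold in WT alone, 1925 with the top 20000 peaks of each list and 15345 against the untransfected null list alone. Each of the 8635 sites was a single deposited WT peak. The WT fold, the WT pileup and the absence of a call in the null lists therefore chose the sites and are given as a description only, whereas position, annotation and sequence were not used by the rule.

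ATAC-seq reads open chromatin through the Tn5 transposase, which cuts accessible DNA and inserts sequencing adapters. The cells were primary mouse embryonic fibroblasts (MEFs) at a passage below 8, and the study asked whether accessibility changes when the histone chaperone ANP32E is lost and whether such change needs the histone variant H2A.Z. The WT group had 3 libraries, the untransfected Anp32e null group 3, Anp32e null cells given a Non-targeting (NT) siRNA pool 1, and Anp32e null cells given a pool of siRNAs against H2A.Z 2. All 3 comparison groups thus shared the Anp32e null genotype, and no WT cells were transfected. The labels name 1 peak list for all libraries of a group, so each group was 1 list, no replicate values were used here, and no test between groups could be made. Intervals below cover counting error only, and neighbouring sites are not independent of each other.

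ANP32E removes H2A.Z from nucleosomes, and H2A.Z is found at the nucleosomes flanking active promoters and at many enhancers. Distal accessible sites in fibroblasts are commonly bound by AP-1, the FOS and JUN dimer that opens chromatin after growth signals, together with TEAD factors, which read the Hippo pathway, and RUNX factors of the skeletal and mesenchymal lineages. SP1 and ETS factors mostly bind GC-rich promoters, and CTCF marks boundaries of chromatin loops. Fibroblast promoters were open in each list. Of 10 fibroblast genes (Col1a1, Col1a2, Col3a1, Pdgfra, Pdgfrb, Thy1, Fn1, Vim, Twist1 and Prrx1), 10 had a peak within 1 kb of a TSS in every list. Of 11 genes of other cell types, 5 had one in WT, 5 in untransfected null, 6 with NT siRNA and 7 with H2A.Z siRNA. Cd68 (macrophages), Epcam and Cdh1 (epithelium) and Cdh5 (endothelium) had one in all 4 lists, Pecam1 (endothelium) in every list but untransfected null, and Ptprc (blood), Nanog (pluripotent cells) and Neurod1 (neurons) had none in any list.

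To show what these sites look like, RefSeq reference sequence of GRCm38.p6 (mm10) is given for 151 bases around the summit of 9 of them, plus strand, 5′ to 3′. Windows with an annotated exon were left out of the choice. The first 3 are among the 4 strongest remaining sites with an AP-1, TEAD or RUNX match in the printed window, the next 2 are the strongest such sites within 1 kb of a protein-coding TSS, and the last 4 are the strongest such sites of loci described further on. Capitals mark AP-1 (TGANTCA), TEAD (GGAATG) and RUNX (TGTGGT) letters on either strand.
Upstream of Hfe2, chr3:96489171-96489321: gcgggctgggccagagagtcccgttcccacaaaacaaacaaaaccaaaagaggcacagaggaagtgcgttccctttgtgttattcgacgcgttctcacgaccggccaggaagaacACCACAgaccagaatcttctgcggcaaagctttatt
Downstream of Fstl5, chr3:77695656-77695806: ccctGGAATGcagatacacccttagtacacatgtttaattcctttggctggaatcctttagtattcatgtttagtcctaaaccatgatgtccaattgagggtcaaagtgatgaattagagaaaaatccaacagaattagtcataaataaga
Zfp804b intron, chr5:7000594-7000744: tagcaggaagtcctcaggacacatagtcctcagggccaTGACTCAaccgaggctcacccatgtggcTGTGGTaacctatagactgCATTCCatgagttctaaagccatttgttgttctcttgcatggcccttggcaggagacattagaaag
By a TSS of Nxpe2, chr9:48341068-48341218: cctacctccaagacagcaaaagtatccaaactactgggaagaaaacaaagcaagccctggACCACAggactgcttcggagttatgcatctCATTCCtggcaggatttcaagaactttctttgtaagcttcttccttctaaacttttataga
Upstream of Tmem238l, chr11:66956319-66956469: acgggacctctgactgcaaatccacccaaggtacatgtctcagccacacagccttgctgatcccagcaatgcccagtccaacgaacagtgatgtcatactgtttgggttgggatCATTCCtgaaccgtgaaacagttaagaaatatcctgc
Zfp423 intron, chr8:87745271-87745421: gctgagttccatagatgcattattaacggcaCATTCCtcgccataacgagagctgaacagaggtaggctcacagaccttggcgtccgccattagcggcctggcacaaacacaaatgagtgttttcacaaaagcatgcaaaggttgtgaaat
Ptprd intron, chr4:76459585-76459735: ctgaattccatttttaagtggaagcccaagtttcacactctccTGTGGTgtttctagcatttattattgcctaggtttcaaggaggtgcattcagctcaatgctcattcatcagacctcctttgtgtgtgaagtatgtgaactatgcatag
Ctnnd2 intron, chr15:30625072-30625222: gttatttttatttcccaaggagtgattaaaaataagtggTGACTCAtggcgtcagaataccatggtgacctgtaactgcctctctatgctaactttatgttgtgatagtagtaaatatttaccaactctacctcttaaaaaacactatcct
Between Kcnj2 and Sox9, chr11:111449187-111449337: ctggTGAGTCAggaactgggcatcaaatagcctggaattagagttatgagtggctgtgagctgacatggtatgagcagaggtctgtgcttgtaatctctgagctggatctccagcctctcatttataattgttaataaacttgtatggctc
The site in the Zfp804b intron held an AP-1, a RUNX and a TEAD match within the window. Over 100 bases on either side of the summit, the site upstream of Hfe2 was 66.2% repeat-masked.

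Most of the 8635 sites were weak and narrow in WT. Their fold at the summit, the fragment pileup over the local background with 1 added to both, had a median of 2.64 (quartiles 2.34 and 3.05), against 4.47 (3.15 and 7.18) at the other 71212 WT sites. The median summit held 27 fragments (quartiles 24 and 33), against 55 at other WT sites, and the median width was 317 bp against 625 bp. The highest 10% of folds began at 3.76, the highest 1% at 6.2, and the top value was 12.6. By decile of WT fold, 37.1% of the weakest 7985 WT sites were called in WT alone, 17.8% of the third decile, 6.79% of the fifth and 0.113% (9 sites) of the strongest. The local background equalled the genome-wide background, within 1%, at 64.2% of the sites.

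The lists differed in depth, which sets how weak a site can be and still be listed. The genome-wide background, in fragments per position, was 8.85 in WT. The untransfected null list had 5.12, the list with NT siRNA 3.88 and the list with H2A.Z siRNA 17.8. At that background a WT peak needed 19 fragments to be listed, or 2.15 times the background. The untransfected null list needed 13 (2.54 times), the NT siRNA list 11 (2.83 times) and the deeper H2A.Z siRNA list 32 (1.8 times). The WT pileup over the WT background had a median of 3.05 at the 8635 sites. It lay above the limit of the Anp32e null list at 83.7% of them (82.9 to 84.5%), above that of the NT siRNA list at 60.3% (59.2 to 61.3%) and above that of the H2A.Z siRNA list at all 8635. When each WT pileup and its local background were scaled to the depth of another list and put against that list's threshold, 7229 sites passed at the depth of Anp32e null, 5581 at that of NT siRNA and 8635 at that of H2A.Z siRNA. The same scaling kept 98.0% of the other WT sites for Anp32e null and 94.2% for NT siRNA. At 1364 sites, 15.8%, the WT enrichment was 1.5 or more times the highest of the 3 limits, and at 467, 5.41%, it was 2 or more times that limit. The scaled pileups were those that had chosen the sites, and no counting error was added to them. How many of the sites depth alone would leave unlisted was therefore not tested. Scaling also takes signal over background to be alike in the lists, and it was not. At sites in all 4 lists the median log2 ratio of Anp32e null over WT, each pileup relative to its background, lay between 0.40 and 0.84 on the 19 autosomes. A lower signal in every cell and fewer cells with the site open cannot be told apart in such bulk data.

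**Figure D1:**
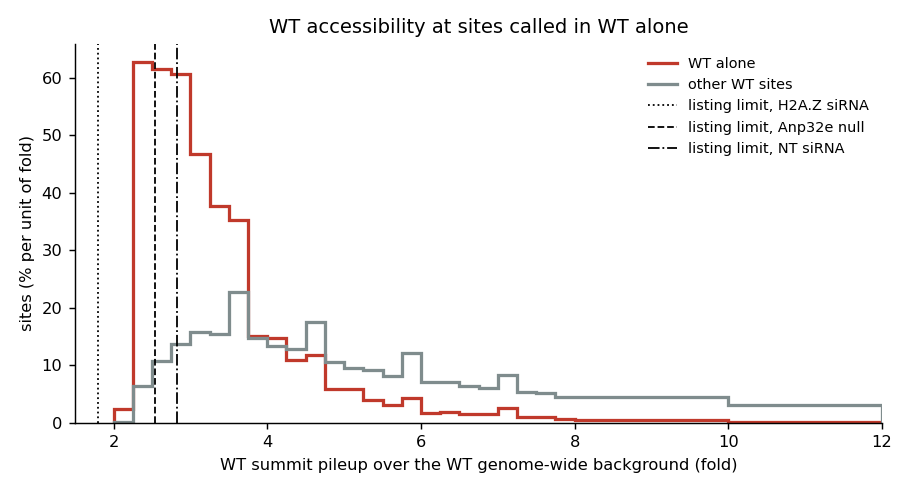
Distribution of WT summit pileup over the WT genome-wide background (x axis, fold, linear) at the 8635 sites called in WT alone (red) and at the other 71212 WT sites (grey), as percent of sites per unit of fold (y axis), up to 12-fold. Vertical lines mark the lowest enrichment each null list could hold at its own background, 1.8 for H2A.Z siRNA, 2.54 for Anp32e null and 2.83 for NT siRNA, and 60.3% of sites called in WT alone lie at or above the highest of them, 15.8% at 1.5 times it or more.

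At its edges the rule separated sites that hardly differ. A site at chr2:92446372-92446688, with a fold of 2.41, counted as WT alone although an H2A.Z siRNA peak began or ended 2 bp away, and 2 other sites had equally close null peaks, at chr4:125703039-125703281 and chr7:101820873-101821202. Just outside, the WT peak at chr5:123382501-123382743 (fold 2.51) only touched an H2A.Z siRNA peak, that at chr5:150905696-150905941 (2.44) only touched an NT siRNA peak, and that at chr2:174199614-174199897 (2.86) shared 1 bp with an Anp32e null peak. Such cases were few. A null peak lay within 500 bp of 6.08% of the 8635 sites (5.6 to 6.6%) and within 1 kb of 12.8% (12.1 to 13.5%), and the median gap to the nearest peak of any null list was 7219 bp.

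The sites lay away from promoters. A peak overlapped a promoter, 1 kb on either side of any annotated TSS, at 896 of 8635 sites, 10.4% (9.75 to 11%, range over the 19 autosomes 4.76 to 14.1%), against 26.5% (26.2 to 26.9%) of other WT sites. Outside promoters, 43.5% of all the sites had their summit in an intron (42.4 to 44.5%), 42.0% in intergenic sequence (40.9 to 43.0%) and 4.18% in an exon. The median distance from summit to the nearest protein-coding TSS was 36041 bp, against 18748 bp at other WT sites. Among the 896 promoter sites, 542 had a protein-coding gene's TSS nearest and 113 a lincRNA's, and their median GC content over the same 100 bases on either side was 50.2%, against 46.8% at all 8635 sites. The promoter share was 4.64% with protein-coding TSSs alone. Among the 1925 sites from the top 20000 peaks of each list it was 19.9%, and 22 of those 1925 were among the 8635.

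Since weak peaks differ from strong ones in all of these features, the sites were also set beside other WT sites inside the same decile of WT fold. The 7 deciles with 100 or more WT-alone sites were used, and other WT sites were weighted to the same spread over deciles. Like strength means like fold alone, so pileup and local background can still differ between the sets. Over all deciles the local background had a median of 8.85 at WT-alone sites and 10.9 at other WT sites, whose part was not tested. Protein-coding promoters took 4.65% of WT-alone sites against 10.1% of other WT sites of like strength, lower in 7 of 7 deciles and on 19 of 19 autosomes. Summits over 50 kb from a protein-coding TSS took 41.2% against 25.5%, higher in 7 of 7 deciles and on all 19 autosomes. The gap was wider in the fifth decile than in the weakest. In the weakest decile 31.6% (29.9 to 33.3%) of WT-alone sites lay over 50 kb from a protein-coding TSS against 20.1% (19 to 21.2%) of other WT sites, and in the fifth decile 56.6% (52.4 to 60.8%) against 31.0% (29.9 to 32.0%). Overlap with a promoter depends in part on peak width, whereas this distance was read from the summit alone. Intergenic sites were more frequent too, at 41.9% against 34.4%, while intronic sites came to 43.6% in each set.

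Base composition went the same way. At like strength the median GC content was 46.8% against 49.2%, lower in 7 of 7 deciles, and the mean GC content was lower on 19 of 19 autosomes. In the fifth decile the medians were 43.8% for WT-alone sites (quartiles 40.3 and 48.3%) and 48.3% for others (43.3 and 53.2%), so the quartiles overlapped. Windows more than 50% repeat-masked made up 7.08% of WT-alone sites against 4.5% of others, higher on 19 of 19 autosomes. The median masked share over all WT-alone sites was 8.96%.

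Matches to 10 consensus sequences were counted in 100 bases on either side of each summit, on both strands. Over all 125387 merged sites, AP-1 (TGANTCA) was present at 29.4%, TEAD (GGAATG) at 19.2%, RUNX (TGTGGT) at 20.3%, SP1 (GGGCGG) at 9.71%, NF-Y (CCAAT) at 23.9%, CTCF (AGGGGGC) at 4.59%, FOX (GTAAACA) at 2.78%, ETS (CCGGAAG) at 2.12%, NFI (TTGGCA) at 14.4% and the CArG box of serum response factor at 1.33%. The sites called in WT alone held AP-1 at 20.3% (19.4 to 21.1%), TEAD at 19.3% (18.5 to 20.1%), RUNX at 21.1% (20.3 to 22.0%), SP1 at 3.12% (2.77 to 3.5%), NF-Y at 24.3%, CTCF at 2.08% (1.8 to 2.41%), FOX at 2.9%, ETS at 0.915%, NFI at 14.5% and the CArG box at 1.27%. The AP-1 share depended on the peaks used. It was 28.5% among sites with a WT −log10 q of 5 or more. When the top 20000 peaks of each list were compared it was 35.1%, over 1925 sites. Of these, 22 were among the sites called in WT alone in the full lists. The 29.4% over all merged sites also came from the full lists, so the 35.1% cannot be set against it. A match is a description of the letters and not a bound factor.

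At like WT fold, SP1 and CTCF letters differed most evenly over deciles and autosomes. SP1 was present at 3.09% of WT-alone sites against 7.06% of others, and CTCF at 2.1% against 4.9%, each lower in 7 of 7 deciles and on 19 of 19 autosomes. Both consensus sequences consist mainly of G and C, and the lower GC content of the sites moves with them, a part that was not tested. ETS was present at 0.914% against 1.37%, lower in 7 of 7 deciles and on 16 of 19 autosomes. RUNX was present at 21.1% against 18.9% and NF-Y at 24.3% against 22.6%, each higher in 7 of 7 deciles, and lower on 2 and 4 of 19 autosomes, respectively. The RUNX intervals overlapped in every decile used but the sixth, and those of NF-Y in every one but the fourth.

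AP-1 and TEAD changed with strength. Over the 7 deciles together AP-1 was present at 20.1% of WT-alone sites against 23.5% of others, lower in 4 of 7 deciles and on 18 of 19 autosomes. In the weakest decile AP-1 was present at 12.4% (11.2 to 13.6%) of WT-alone sites against 18.4% (17.4 to 19.5%) of others, and in the second at 18.4% against 22.9%. From the fourth to the seventh decile the shares came to between 29% and 32.9% in WT-alone sites and between 28.7% and 33.2% in others, and the intervals overlapped in each. TEAD was present at 15% (13.8 to 16.4%) against 16% (15 to 17.1%) in the weakest decile, and its share was higher at WT-alone sites from the third decile on, with intervals that overlapped in the third, the fifth and the sixth. In the fourth decile it was present at 27% (24.2 to 29.9%) against 20.4% (19.5 to 21.4%), and in the seventh at 32.9% (26.1 to 40.6%) against 22.1% (21.2 to 23%), the former over 158 sites.

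**Figure D2:**
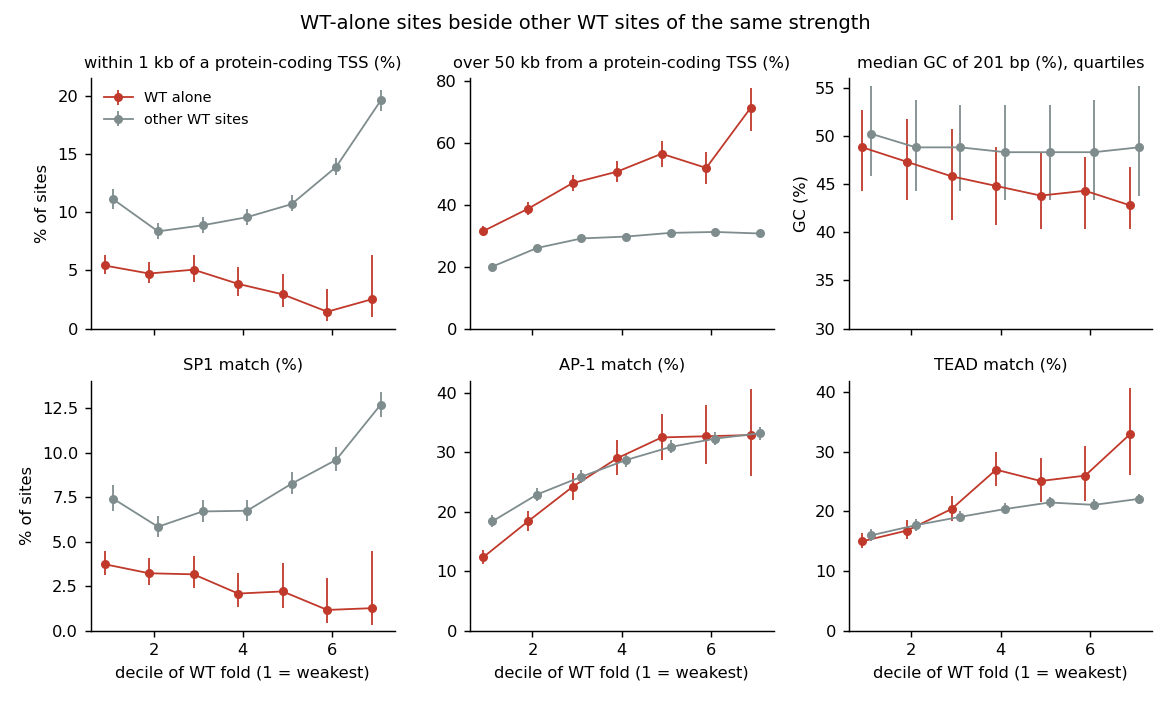
Features of WT-alone sites (red) and other WT sites (grey) by decile of WT fold (x axis, 1 to 7 of 10, linear). Bars are 95% Wilson intervals, except for GC content, where points are medians and bars quartiles (axis from 30%), and the red points lie below the grey ones for promoters, GC and SP1 and above them for distance over 50 kb in all 7 deciles shown, with AP-1 meeting from the fourth decile.

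The sites were also set beside those called in 1 null list alone. The 3719 called in untransfected Anp32e null alone had 9.76% at promoters (8.85 to 10.8%), 40.8% in intergenic sequence, AP-1 at 21.1%, SP1 at 3.47% and a median GC content of 47.3%, next to 10.4%, 42%, 20.3%, 3.12% and 46.8% at the WT-alone sites. TEAD was a little more frequent there, at 21.5% (20.2 to 22.8%) against 19.3% (18.5 to 20.1%), with intervals that did not overlap. The 2933 sites called in NT siRNA alone held less AP-1, at 12.2% (11 to 13.4%), and more NFI, at 22.5% (21 to 24%) against 14.5% (13.8 to 15.3%). The 17599 sites called in H2A.Z siRNA alone stood apart in more ways, with 14.1% at promoters, 30.2% in intergenic sequence, AP-1 at 29.0% (28.4 to 29.7%) and TEAD at 14.2% (13.7 to 14.7%), and 21.8% of them lay over 50 kb from a protein-coding TSS. That share was 41.4% for WT alone, 42% for Anp32e null alone and 36% for NT siRNA alone. The 57522 sites in all 4 lists held promoters at 30.4%, SP1 at 15.8% and CTCF at 5.36%. The NT siRNA list came from 1 library and the lists differ in depth, whose parts in these differences were not tested.

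**Figure D3:**
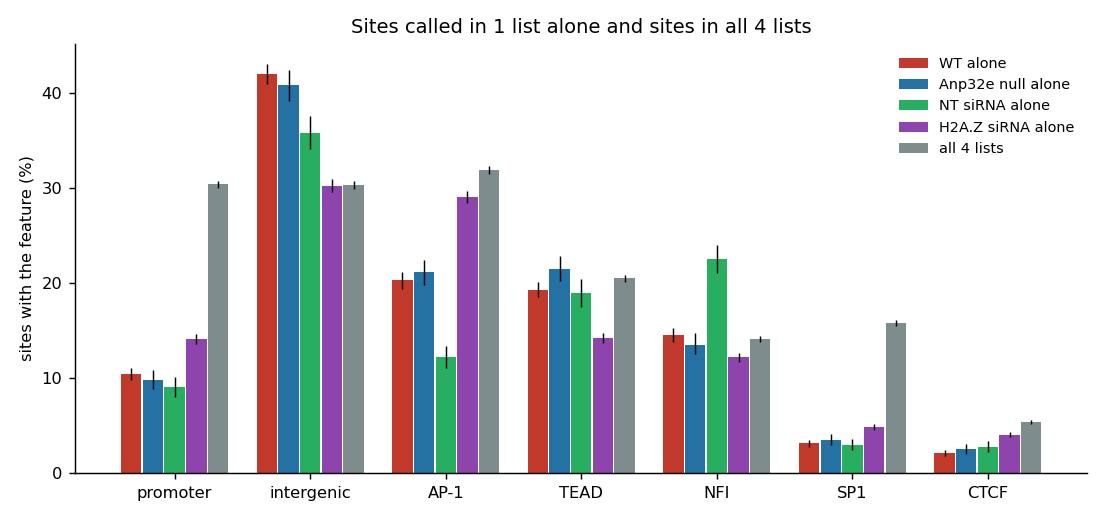
Percent of sites (y axis, bars from 0, with 95% Wilson intervals) that lie at promoters or in intergenic sequence, or hold a consensus match, for sites called in 1 list alone and for sites in all 4 lists (colours as in the key). WT-alone sites (red) run close to those of Anp32e null alone (blue), apart from NT siRNA alone in AP-1 and NFI, and far below sites in all 4 lists for promoters and SP1.

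The 12 strongest sites had folds between 9.04 and 12.6 and summits of 88 to 238 fragments. Of these, 9 were intergenic, 5 lay over 50 kb from any protein-coding TSS, 8 had no null peak within 10 kb, 5 held a TEAD match and 2 an AP-1 match. Over all 8635 sites 3811 were intergenic, 3574 lay over 50 kb from such a TSS, 3527 had no null peak within 10 kb, 1664 held a TEAD match and 1751 an AP-1 match. The highest, at chr3:96488927-96489854 (fold 12.6, 238 fragments), lay 517 bp downstream of the TSS of the small RNA gene Gm22614 and 451 bp from an H2A.Z siRNA peak. The site at chr18:44298196-44299108 (fold 11.7, 114 fragments) lay 28.6 kb downstream of the TSS of Npy6r, a neuropeptide Y receptor gene, with the nearest null peak 45.8 kb away. The site at chr3:77695433-77696208 (11.5, 112 fragments) stood in a gene desert, 1102 kb from the TSS of Fstl5, and the nearest null peak was 574 kb away. At chr13:106303881-106304474 (10.9, 106 fragments) the nearest protein-coding TSS was that of Ipo11, 621 kb away, and the nearest null peak 247 kb away.

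The other 8 of the 12 had varied surroundings. The site at chr13:9834304-9834517 (fold 10.9, 106 fragments) was 214 bp wide, held 16 CpG around its summit and lay 159 bp from the TSS of Gm24187. That at chr3:78966862-78967507 (10.8) was the most GC-rich of the 12, at 60.7%, and lay 408 bp upstream of Gm9762 and 178 kb from the TSS of Rapgef2, an exchange factor for Rap. The site at chr2:15526360-15526902 (10.8, 105 fragments) covered the first exon of Malrd1, 144 bp past its TSS, and the nearest null peak was 218 kb away. The site at chr18:43961544-43961949 (10.4, 101 fragments), with an AP-1 match, lay 1420 bp upstream of Spink5, which codes for a serine protease inhibitor of the skin. Sites 59.7 kb upstream of Chmp2b (10.7), upstream of Pcnx (9.17) and in introns of Slc4a10 (9.14) and Zfp804b (9.04) completed the 12.

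Of the 8635 sites, 359 had their summit within 1 kb of the TSS of a protein-coding transcript, with 350 genes nearest to them. Their median fold was 2.54, next to 2.64 over the whole set. Counting the TSSs of all transcripts, noncoding ones included, 495 of the 20807 protein-coding genes of the autosomes, or 2.38%, had a site within 1 kb of one of their TSSs. Malrd1 led, as above. Next came Nxpe2, with a site at chr9:48341040-48341563 (fold 6.91, 67 fragments) 245 bp upstream of one of its TSSs, Aste1 (6.14, 75 fragments), where an NT siRNA peak lay 644 bp away, and Cntn1, the neural adhesion molecule contactin 1, with a 1438 bp site of 69.2% GC at chr15:92050819-92052256 (6.11, 66 fragments) whose nearest null peak was 81.2 kb away. Tmem238l (5.69), Eps8l1 (5.28), Aqp4 (5.07), the water channel of astrocytes, Nxph2 (4.77), Slco1a6 (4.57), an organic anion transporter, Steap4 (4.57), a metalloreductase, and Tctex1d1 (4.47) followed. At Nxph2, a neurexophilin gene, the site lay 17 bp past the TSS and 85.9 kb from a null peak.

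Some genes held many of the sites. Over all protein-coding genes 12.6%, 2625 of 20807, had 1 or more of the sites in the gene body, and among the 541 genes longer than 300 kb it was 66.9%. In long genes 14.0% of WT sites were called in WT alone, against 8.4% in shorter ones. Ptprd, which codes for a receptor tyrosine phosphatase of the synapse, held the most, with 25 of its 37 WT sites (67.6%, interval 51.5 to 80.4%). Fgfr2, a receptor for fibroblast growth factors, followed with 21 of 179, over an annotated span of 2961 kb that runs across other genes. Ctnnd2, coding for delta-catenin, held 14 of 31, Cdh13, coding for T-cadherin, 13 of 47, Zfp423 13 of 20 and Etl4 12 of 37. Gm20388, a gene model of 4435 kb, held 12 of 305, or 3.93%. Asic2, an acid-sensing ion channel gene, Pde4b, a cAMP phosphodiesterase gene, Pdzd2 and Ptprn2 tied at 11, of 25, 27, 28 and 19 WT sites, respectively. The same genes, which were chosen for their many WT-alone sites, held fewer sites called in Anp32e null alone, as did the autosomes as a whole (3719 against 8635). These were 0 in Ctnnd2, Cdh13, Zfp423 and Pde4b, 1 in Ptprd, Gm20388, Asic2 and Pdzd2, 2 in Ptprn2, 4 in Etl4 and 16 in Fgfr2.

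Zfp423 codes for a zinc finger transcription factor of preadipocyte commitment. Of its 20 WT sites over 298 kb (chr8:87661810-87959595, minus strand), the 13 called in WT alone had folds from 2.11 to 4.44 (median 2.77), and 10 of them lay above the highest listing limit of the null lists. The 7 shared sites had a median fold of 4.5, and no site of the gene was called in a null list without WT. The site nearest the TSS, 0.804 kb into the gene (fold 4.58), was shared. Downstream, sites called in WT alone lay from 20.4 kb to 267 kb, among them 5 in a row from 184 to 241 kb. The widest of all 8635 sites, 1792 bp, was one of the 13, at chr8:87744532-87746323 in an intron (fold 4.44, 61 fragments), with the nearest null peak 27.8 kb away. The second widest, 1736 bp at chr16:29208730-29210465 (4.09), lay 596 bp upstream of Hrasls, and the third, 1627 bp at chr8:71147463-71149089 (3.66), was 84.1% repeat-masked at its summit.

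In Ptprd (chr4:75941238-78211961, minus strand) the 25 sites had folds from 2.13 to 6.72 (median 2.84), 17 lay above the highest listing limit, and the 12 shared sites had a median fold of 6.58. The first 6 WT sites of the gene, 684 to 740 kb past the TSS, were all called in WT alone, as were the last 4, from 2018 to 2258 kb, and between 1735 and 1914 kb shared and WT-alone sites were mixed. An open stretch of 1705 kb between Kcnj2, a potassium channel gene, and Sox9, the transcription factor of cartilage formation, was examined after its values had been seen, since its window had the highest share of WT-alone sites. It held 30 WT sites, of which 11 were called in WT alone (36.7%, interval 21.9 to 54.5%), with folds from 2.54 to 6.5 (median 3.96), and 10 of the 11 lay above the highest listing limit. All 8 WT sites farthest from Sox9, at -1639 to -1109 kb from its TSS, were called in WT alone. Within 500 kb of Sox9 none was, and the 4 sites called in null lists without WT lay between -348 and -23.9 kb.

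**Figure D4:**
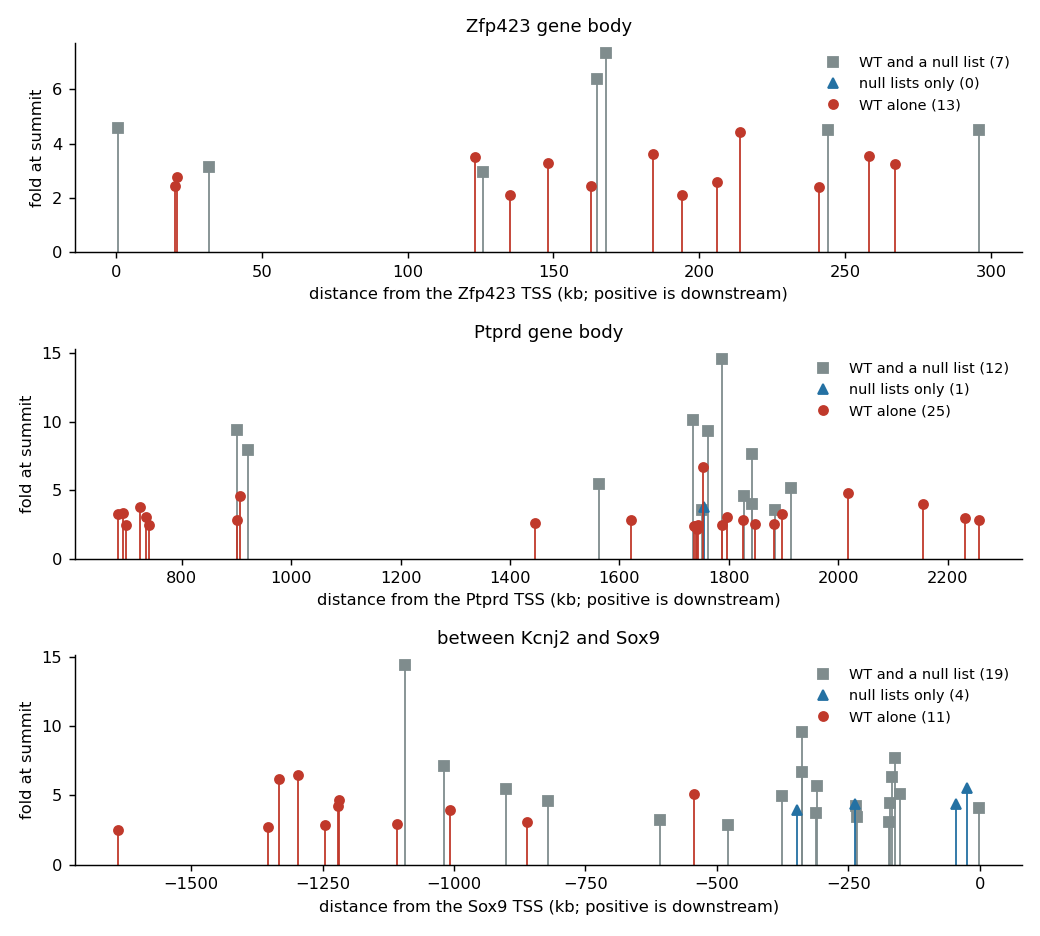
Fold at the summit (y axis, linear, from 0) of every merged site by distance from the TSS in kb (x axis, linear) in Zfp423, in Ptprd and between Kcnj2 and Sox9. Red circles are WT-alone sites (13, 25 and 11), grey squares sites of WT and a null list (7, 12 and 19) and blue triangles sites of null lists without WT (0, 1 and 4, highest-ranked null peak), and at Sox9 the red circles lie far upstream and the blue triangles near the gene.

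Across the genome the sites were spread but uneven. Of 2270 windows of 1 Mb with a WT site, 294 had no WT-alone site, the median was 3 and 162 windows had 10 or more. The most, 26 of 68 WT sites, lay on chromosome 14 between 118 and 119 Mb, a window with Sox21, Abcc4 and Dzip1. Among the 1761 windows with 15 or more WT sites, 28 had 40% or more called in WT alone. The highest share was 64.7%, 11 of 17, on chromosome 11 between 111 and 112 Mb, a window with Kcnj16 and Kcnj2, with no site called in null lists without WT. Next was 60%, 15 of 25, on chromosome 4 between 76 and 77 Mb, inside Ptprd. Windows in Dpp10 (8 of 15), Diaph3 (8 of 15) and Robo2 (9 of 17) followed. Of the 8635 sites, 2999, or 34.7%, stood next to another WT-alone site with no other merged site between, and 60 runs had 5 or more. The longest run was 10 sites within 53 kb at chr8:71804691-71857699, nearest to the zinc finger gene Zfp709, with folds from 2.23 to 3.37.

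By chromosome the share of WT sites called in WT alone ran from 5.72% (4.82 to 6.77%) on chromosome 19 to 13.7% (12.5 to 14.9%) on chromosome 14. Chromosomes 5 (13.4%), 9 (12.6%) and 12 (12.5%) were next highest, and 15 (8.08%) and 11 (8.33%) next lowest. The balance with sites called in Anp32e null alone varied more. WT-alone sites were 4.61 times as many on chromosome 9, 4.41 times on 11, 4.27 times on 14 and 4.23 times on 8, against 1.24 times on 19, 1.33 times on 18 and 1.39 times on 15. Accessibility at sites in all 4 lists moved with this. The median log2 ratio of Anp32e null over WT, each pileup relative to its background, was lowest on chromosomes 14 (0.40), 9 (0.43), 11 (0.44) and 8 (0.47) and highest on 18 (0.84), 16 (0.82) and 17 (0.82). These medians describe whole chromosomes and not single sites, and the cause of their spread was not tested.

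**Figure D5:**
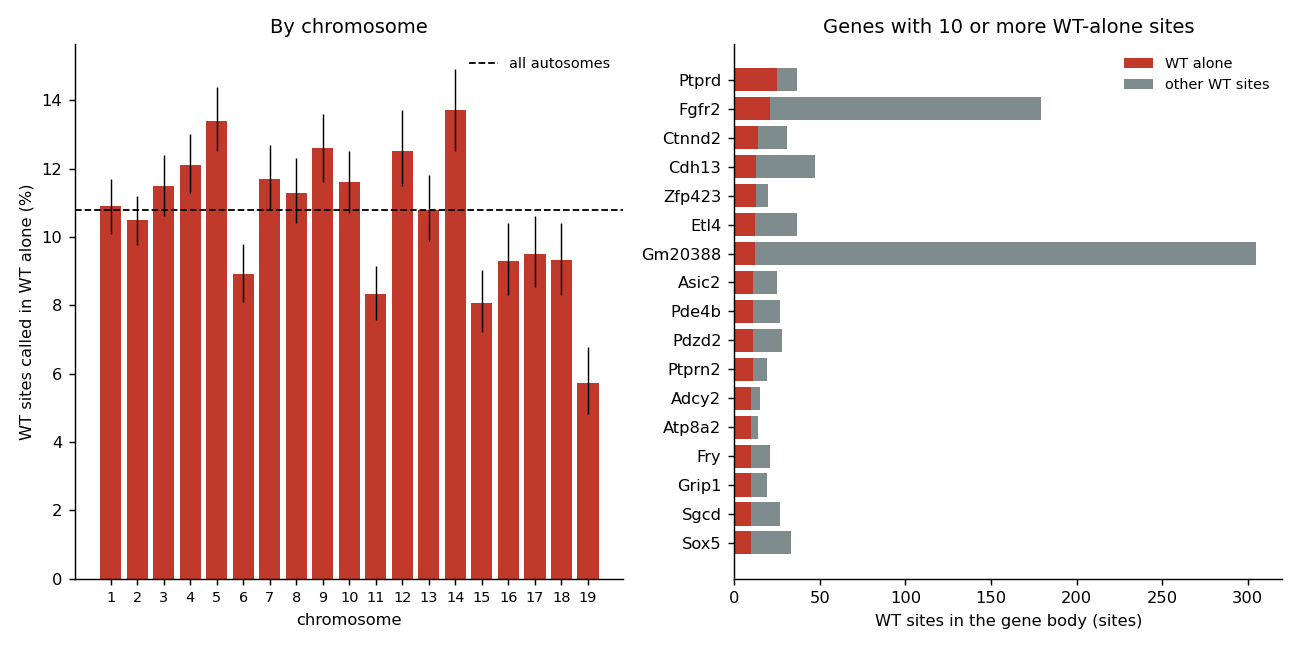
Left, percent of WT sites called in WT alone on each autosome (y axis from 0, bars with 95% Wilson intervals), with the value over all autosomes, 10.8%, as a dashed line. Right, WT sites in the bodies of genes with 10 or more WT-alone sites, split into WT-alone (red) and other WT sites (grey), on a linear axis from 0, where red makes up most of the bar in Ptprd, Zfp423, Ptprn2, Adcy2, Atp8a2 and Grip1 and little of it in Fgfr2 and Gm20388 (genes on chromosome 18 are not drawn).

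Among 14 gene lists, the Hippo pathway and TEAD list had the most genes near the sites. Over all protein-coding genes 11.1% had a summit of the set within 10 kb of a TSS. In the Hippo list 8 of 19 genes did, Amotl1, Amotl2, Lats1, Sav1, Tead4, Vgll3, Vgll4 and Yap1. Tead4, one of the TEAD factors, held a site 183 bp from a TSS at chr6:128275649-128276571 (fold 3.44, 36 fragments). Sav1, the scaffold of the Hippo kinases, had one 348 bp from a TSS (2.44, 23 fragments) and another at 9094 bp (3.24, 45 fragments), and Vgll3, a TEAD cofactor, one at 280 bp (2.64, 25 fragments). In Yap1, the coactivator that the pathway restrains, the site at 7387 bp had a fold of 2.84, and Lats1, a kinase of the pathway, held 2 in its body, of 3 WT sites. Gene bodies of this list held 11 of the sites among 125 WT sites, next to 10.8% over all WT sites.

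In the TGF-beta list 6 of 27 genes had a site within 10 kb of a TSS, next to 11.1% over all protein-coding genes. Smad1, a signal carrier of BMP receptors, had one at 308 bp (fold 2.54), and that of Acvr1, a type I receptor, was the strongest (5.48, 53 fragments, 2922 bp from a TSS). Gene bodies of this list held 9 of the sites among 165 WT sites, next to 10.8% over all WT sites. Of the 9, 5 were in Bmpr1b, with folds from 2.34 to 4.57. In the Runx and skeletal list 3 of 19 genes did, and its gene bodies held 15 of the sites among 114 WT sites. In all protein-coding genes longer than 300 kb, 14.0% of WT sites were called in WT alone. Sox5, which acts with Sox6 and Sox9 in cartilage, held 10 of 33 WT sites of its body, of which those at 121 bp and 929 bp lay by a TSS (2.95 and 2.34), Sox6 held 4 of 18, and Acan, the cartilage proteoglycan aggrecan, had a site 40 bp from its TSS (2.18, 23 fragments).

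In the myogenic list 4 of 13 genes had a site within 10 kb, among them Mef2c (52 bp, fold 3.15) and Mef2a (9916 bp, 4.98). The share over all protein-coding genes was 11.1%, as above. In the mesenchymal transcription factor list 4 of 21 did, with Zeb1, a repressor of epithelial genes, at 850 bp (3.11), and the Wnt list had 4 of 32, with Wnt7b at 28 bp (2.04). Neural transcription factors had 6 of 30, fibroblast collagens and matrix 4 of 25, contractile genes 2 of 14, with Myocd, a coactivator of serum response factor, at 5.79, interferon response genes 2 of 19, with Oas1a at 333 bp (2.84), and cell cycle genes 3 of 28. Of 39 Hox genes 1 (Hoxd3) had a site within 10 kb. Of the 42 WT sites in their bodies none was called in WT alone, next to 10.8% over all WT sites.

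AP-1 subunit genes had none of the sites, 0 of 14 within 10 kb of a TSS and 0 of 26 WT sites in their bodies, and neither did the genes of H2A.Z and its chaperones, with 0 of 14 and 0 of 21. Over all genes 11.1% had a site within 10 kb and over all WT sites 10.8% were called in WT alone. Whether a count of 0 in lists this small differs from these shares cannot be told. No test of a list was made. Around the study's own loci, none of the 13 WT sites within 50 kb of Anp32e was called in WT alone, and of those within 1 Mb 5 were (3.4%), next to 10.8% over all WT sites, at which so few sites within 50 kb tell little. For H2afz, which codes for H2A.Z.1, it was 0 of 6 and 22 of 117 (18.8%), and for H2afv, which codes for H2A.Z.2, 0 of 8 and 4 of 92 (4.35%). For Crabp1, a retinoic acid binding protein gene, it was 2 of 9 and 10 of 87 (11.5%), and for Cdkn1c, a cell cycle inhibitor gene, 3 of 10 and 20 of 115 (17.4%). At Crabp1 itself no WT peak lay within 1 kb of a TSS, whereas all 3 null lists had one there.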

How the data were processed

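ATAC-seq peaks of 4 groups of MEFs (9 libraries) were analysed as 1 list per group. Per the labels and the study's methods, the authors mapped read pairs with Bowtie2 (mm10), dropped duplicates by Picard and ran MACS2 in paired-end mode for narrow peaks, which piles up whole fragments, so a shift for the Tn5 cut would move edges by a few bases only. In each deposited list, fold enrichment at the summit is the ratio of pileup to local background, with 1 added to both, p-values are −log10 values, and the authors' score for each peak's q-value is −log10 q. The last deposited column is the summit's offset. The lists began at a −log10 q of 1.30 (WT) to 1.31. The siRNA lists lacked 74 (NT siRNA) and 79 (H2A.Z siRNA) of their running peak numbers, so peaks had been removed there before deposition; known artefact regions were not filtered out here.

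Pileup and local background were solved from each fold and −log10 p under the Poisson model of MACS2, with pileups whole, within 0.05, for nearly all peaks. This and the merging were tested on simulated data. A list's most frequent background gave its depth. Annotation was GENCODE M21 and sequence GRCm38.p6, the assembly of mm10. TSSs were those of all transcripts. Consensus letters, GC and masking were read in 100 bases on either side of the summit. Summits were placed in exons, introns or intergenic sequence of all annotated genes. Shares carry 95% Wilson intervals. With 1 list per group no test between groups was made. Python 3.11.15, NumPy 2.4.6, pandas 2.3.3, SciPy 1.17.1 and matplotlib 3.10.9 were used.

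The sites, gene lists and consensus sequences were chosen with earlier results of these data known. Sequences were printed for none of the sites on chromosome 18. Named were the 12 sites of highest fold, the 12 of highest fold within 1 kb of a protein-coding TSS (1 of these, and 1 further sequence, are not reported here), the 3 widest, the 8 protein-coding genes with most sites and those tied with the eighth (11 genes), genes of the fixed lists with a site within 1 kb of a TSS, and the study's loci. The other list genes named, the windows, the runs and the stretch upstream of Sox9 were picked after their values had been seen. Alternatives changed the peak threshold, list length, merging, overlap, depth, lists compared, chromosomes, promoter definition and window.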

Additional observations from a re-analysis of the deposited data

How the results depend on the processing

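The number of sites called in WT alone, 8635, was 4072 with a −log10 q of 5 or more in every list, 3187 with that threshold for WT alone, 1925 with the top 20000 peaks of each list and 15345 against untransfected Anp32e null alone. The top 20000 lists hold strong peaks only, and 22 of the 8635 sites were among those 1925. As a share of WT sites, 10.8%, it was 6.34%, 4.96%, 9.65% and 19.2% in the same order, 12.3% with 80433 peaks from each list, 9.43% with no null peak within 1 kb, 9.39% with WT scaled to the depth of Anp32e null and 11.5% when the WT summit decided. The promoter share, 10.4%, was 9.13% with the threshold for WT alone, 19.9% with the top 20000, 9.58% with no null peak within 1 kb, 7.12% with 500 bp promoters and 4.64% with protein-coding TSSs. The intron share, 43.5%, was 41.5% with the top 20000 and 45.3% against Anp32e null alone. The intergenic share, 42.0%, was 44.0% with the threshold for WT alone, 40.9% at equal length, 36.0% with the top 20000, 43.0% with no null peak within 1 kb and 39.4% against Anp32e null alone. The AP-1 share, 20.3%, was 26.9% with the threshold in every list, 28.5% for WT alone, 21.3% at equal length, 35.1% with the top 20000, 21.2% with no null peak within 1 kb, 21.9% at null depth, 22.2% against Anp32e null alone, 19.3% by summit and 29% in a wider window. The median GC content, 46.8%, was 45.3%, 44.8%, 45.8% and 46.3% with the threshold in every list, for WT alone, the top 20000 and null depth, and 46.6% in the wider window. The cause of these shifts was not tested. The other 36 values lay within 1.5 times the count or inside the interval of the main value. No paired analysis was possible because the libraries had been joined into 1 list per group, and for the same reason leaving out each replicate was not run.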
